A study of Mus musculus with 8 samples.

Results

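Tbx2, Tbx3, Tbx4 and Tbx5 are 4 transcription factor genes of the T-box family that are active in the mesenchyme of the lung. They were found by symbol in a table of 25509 mouse genes, and all 4 were among the 14524 genes that passed a filter on low counts and were tested. The libraries came from lung cells of 4 wild-type C57Bl6/J mice, which the labels number 2, 7, 8 and 10. The labels name no treatment and give neither age nor sex. Flow sorting kept cells negative for CD45, CD326 and CD31, the surface markers of leukocytes, epithelium and endothelium. From each lung 1 library was made of cells with CD249 on their surface (CD249+) and 1 of as many cells without it (CD249−), giving 4 libraries per fraction. CD249 is glutamyl aminopeptidase, a peptide-trimming enzyme of the cell surface that the gene Enpep encodes. The comparison asks how the sorted lung cells with this enzyme differ in RNA from those without it. The sample titles call both fractions fibroblasts, but both also held RNA of endothelial, pericyte and smooth muscle markers, as given below.

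T-box proteins bind DNA through a conserved domain, the T-box, and switch their target genes on or off. Tbx4 and Tbx5 act mainly as activators, and in the embryonic lung they are needed for the mesenchymal signals, Fgf10 among them, that drive the growth and branching of the airway buds. Tbx2 and Tbx3 act mainly as repressors, and in the same mesenchyme they hold down inhibitors of the cell cycle and of Wnt signalling. In adult lungs the Tbx4 lineage includes fibroblasts, pericytes and smooth muscle cells.

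On the GRCm38 assembly with the GENCODE M21 annotation, the 4 genes form 2 neighbouring pairs. Tbx2 (ENSMUSG00000000093.6, chr11:85832551-85841948) and Tbx4 (ENSMUSG00000000094.12, chr11:85886422-85916097) lie 44.5 kb apart on the plus strand. Tbx3 (ENSMUSG00000018604.18, chr5:119670669-119684724) and Tbx5 (ENSMUSG00000018263.11, chr5:119832668-119885219) lie 148 kb apart, also on the plus strand. All are protein-coding genes, and each pair holds 1 repressor and 1 activator. Because the table holds estimated counts, which can divide a read among genes it matches, the transcripts were compared with each other in windows of 75 bases, the length of the sequencing reads. No window of Tbx2 (0 of 3552), Tbx4 (0 of 3324) or Tbx5 (0 of 4596) was identical to a window in a transcript of another gene. Of the Tbx3 windows 42 of 6685 (0.628%) were identical to the antisense gene Tbx3os1, which overlaps its start. The most similar coding windows of the repressors are printed to show how far a read of one differs from its paralog. Capitals mark the bases that differ, both are on the plus strand, and each window joins 2 exons, so its coordinates include an intron. The windows of Tbx2 (chr11:85833430-85834622, exons 1 and 2) and Tbx3 (chr5:119672333-119674028, exons 1 and 2) differed at 10 of 75 bases (86.7% identity).
Tbx2: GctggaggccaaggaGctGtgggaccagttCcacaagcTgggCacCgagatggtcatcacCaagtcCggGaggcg
Tbx3: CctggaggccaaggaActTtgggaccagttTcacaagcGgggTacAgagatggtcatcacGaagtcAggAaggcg
Between an activator and a repressor the nearest windows differed at 11 bases (Tbx2 and Tbx5), 12 bases (Tbx2 and Tbx4), 17 bases (Tbx3 and Tbx5) and 18 bases (Tbx3 and Tbx4). The activators Tbx4 and Tbx5 were the closest pair, with nearest windows that differed at 8 of 75 bases (89.3% identity).

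Library totals ran from 23011383 to 31906414 counts, with 15456 to 16526 genes detected per library. Levels are given as CPM, the usual library-scaled counts, with library totals adjusted by TMM. A gene was called when the adjusted p of edgeR's quasi-likelihood F test was under 0.05, with Benjamini-Hochberg adjustment over all 14524 genes. By that rule 30.8% of the genes were called, 2455 (16.9%) higher and 2013 (13.9%) lower in CD249+ cells, and the median log2 fold change over all genes was -0.02. Scaling by library size alone moved that median to -0.12 and the split to 2106 higher and 2689 lower. Enpep rose from 8.98 ± 5.62 to 241 ± 64.8 CPM (SD, n = 4), and its levels in the fractions did not overlap. Some libraries stood apart. The haemoglobin gene Hbb-bs was at 37.3 to 162 CPM in mice 7 and 8 and at 3.24 to 7.44 CPM in mice 2 and 10, and the surfactant gene Sftpc was at 7551 CPM in CD249+ cells of mouse 10 against 58.6 to 781 CPM in the other libraries.

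Of the 4 T-box genes, 3 were called higher in CD249+ cells and 1 lower, beside 16.9% and 13.9% of all genes tested. For each of the 4 genes the libraries of one fraction lay wholly above those of the other. The share of all genes tested that separate in this way was not counted. Tbx4 differed 16.2-fold, Tbx5 11.4-fold and Tbx2 2.95-fold, while Tbx3 was 1.90-fold lower. Every member was counted at least 92 times in every library.

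**Figure D1:**
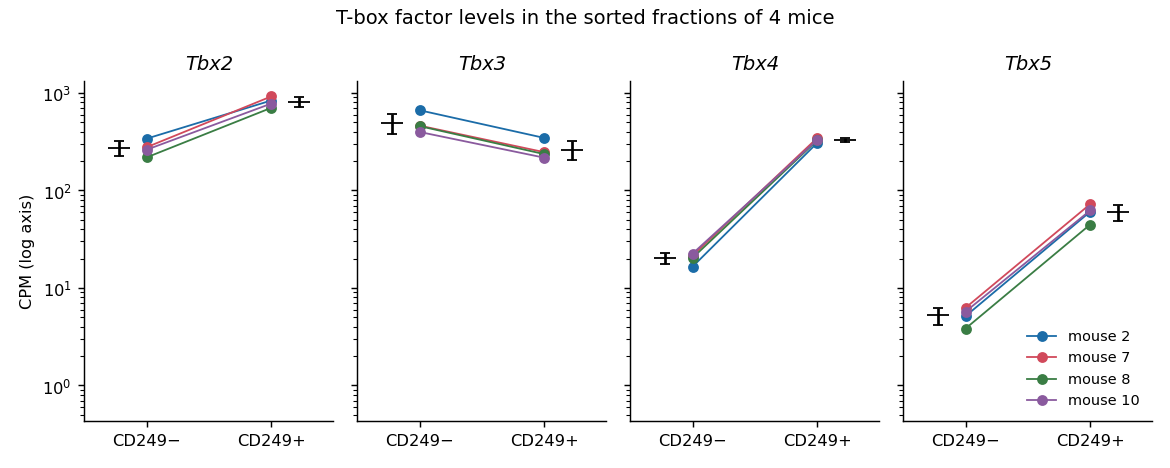
Level of each T-box gene in CPM (log axis) in the CD249− and CD249+ libraries of 4 mice, a line joining the 2 libraries of a mouse and black bars giving the mean and SD of each fraction. Tbx4 goes from 16.5 to 22.5 CPM up to 308 to 345 CPM, whereas all 4 lines of Tbx3 go down.

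Tbx4, an activator of lung mesenchyme, was at 16.5, 21.5, 20.4 and 22.5 CPM in the CD249− libraries of mice 2, 7, 8 and 10. In the CD249+ libraries of the same mice it was at 308, 345, 327 and 330 CPM. The CD249+ levels were close to one another, with a coefficient of variation of 4.71%, and no library came near those of the other fraction. The means were 20.2 ± 2.62 and 328 ± 15.4 CPM (SD, n = 4), which is a log2 fold change of 4.02 (SE 0.12, edgeR adjusted p = 3.00e-07). Tbx4 had the smallest p of the 14524 genes tested, and it ranked between 1 and 23 in the alternative settings. By the size of its log2 increase it ranked 127. Within a mouse the increase was 18.6-fold in mouse 2, 16.1-fold in mice 7 and 8 and 14.7-fold in mouse 10. These are mixed populations of sorted cells, so fewer cells of a type and less RNA per cell cannot be told apart.

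Tbx5, the other activator, was less abundant. The CD249− libraries of mice 2, 7, 8 and 10 held it at 5.15, 6.27, 3.84 and 5.73 CPM, from 92 to 191 counts. In CD249+ cells it was at 60.6, 72.4, 44.7 and 62.4 CPM, from 1264 to 2046 counts. Mouse 7 had the highest and mouse 8 the lowest level in both fractions, and the fractions did not overlap. The means were 5.25 ± 1.04 and 60.0 ± 11.5 CPM (SD, n = 4), a log2 fold change of 3.51 (SE 0.20, edgeR adjusted p = 4.10e-06). The increase was even across mice, 11.8-fold, 11.6-fold, 11.7-fold and 10.9-fold in mice 2, 7, 8 and 10, with an SD of 0.0503 on the log2 scale.

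Tbx2, a repressor, was abundant in both fractions. The CD249− libraries of mice 2, 7, 8 and 10 held it at 340, 278, 218 and 262 CPM, and the CD249+ libraries of those mice at 838, 921, 704 and 778 CPM. The lowest CD249+ library, of mouse 8, was above the highest CD249− library, of mouse 2. The means were 275 ± 50.4 and 810 ± 92.1 CPM (SD, n = 4), a log2 fold change of 1.56 (SE 0.15, edgeR adjusted p = 6.66e-05). Mouse 2 showed the smallest increase, 2.46-fold, and mouse 7 the largest, 3.32-fold.

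Tbx3, the other repressor, moved the other way. The CD249− libraries of mice 2, 7, 8 and 10 held it at 666, 463, 458 and 399 CPM, and the CD249+ libraries at 346, 247, 236 and 217 CPM. Mouse 2 was the highest in both fractions, and its CD249+ library was the nearest to the CD249− range, which began at 399 CPM. The means were 496 ± 117 and 262 ± 57.8 CPM (SD, n = 4), a log2 fold change of -0.92 (SE 0.19, edgeR adjusted p = 0.00513). Within a mouse the decrease was more even than the levels themselves, 1.92-fold, 1.87-fold, 1.94-fold and 1.84-fold in mice 2, 7, 8 and 10, with an SD of 0.0355 on the log2 scale. In mice 2 and 10 alone the decrease was of the same size, a log2 fold change of -0.92. With 2 libraries per fraction and a fit that did not use the pairing by mouse, this decrease did not pass the edgeR test (adjusted p = 0.205). With mouse as a block in all 8 libraries, the log2 fold change of Tbx3 was -0.92 (SE 0.0655, edgeR adjusted p = 1.93e-05). The libraries do not mark strand, so reads of Tbx3os1 in its overlap with Tbx3 cannot be told apart from reads of Tbx3. Tbx3os1 itself had no entry in the table of genes and was not analysed.

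The order of the 4 genes was compared after dividing CPM by the exon length of each gene, the merged length of all its annotated exons. That length can exceed the length of the transcripts expressed, and the order depends on it. In CD249− cells Tbx2 (75.7 ± 13.9 CPM per kb, SD, n = 4) and Tbx3 (74.9 ± 17.6 CPM per kb) stood together at the top, and their ratio ran from 0.871 to 1.2 with Tbx2 ahead in 2 of 4 libraries. Tbx4 followed at 5.95 ± 0.769 CPM per kb and Tbx5 at 1.12 ± 0.223 CPM per kb. In CD249+ cells the order was Tbx2 (223 ± 25.4 CPM per kb), Tbx4 (96.3 ± 4.54), Tbx3 (39.5 ± 8.72) and Tbx5 (12.8 ± 2.45), the same in all 4 libraries. Per kb, Tbx4 thus stood below Tbx3 in every CD249− library and 1.73 to 2.96 times above it in every CD249+ library. In CPM without this division, Tbx3 (346) was above Tbx4 (308) in the CD249+ library of mouse 2. Tbx3 was also above Tbx2 in CPM in every CD249− library. Among 14486 tested genes with a known length, Tbx4 was above 54.6% of genes per kb in CD249− cells and above 96.9% in CD249+ cells. Tbx5 went from above 23.2% to above 72.6% of genes, Tbx2 from 96.0% to 98.9%, and Tbx3 from 95.9% to 91.2%.

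The summed level of the 4 genes was 158 ± 29.4 CPM per kb in CD249− cells (136 to 200) and 372 ± 32.1 CPM per kb in CD249+ cells (335 to 408). The share of Tbx2 in that sum was 48.1% ± 3.19 in CD249− and 59.9% ± 1.78 in CD249+ cells (SD, n = 4). The share of Tbx3 went from 47.3% ± 3.81 to 10.6% ± 2.06. The share of Tbx4 went from 3.91% ± 1.02 to 26.0% ± 2.34, and that of Tbx5 from 0.724% ± 0.172 to 3.43% ± 0.432. For each of the 4 genes, the shares in the fractions did not overlap. The repressors made up most of the sum in both fractions, and the activators were a small part of it in CD249− cells.

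**Figure D2:**
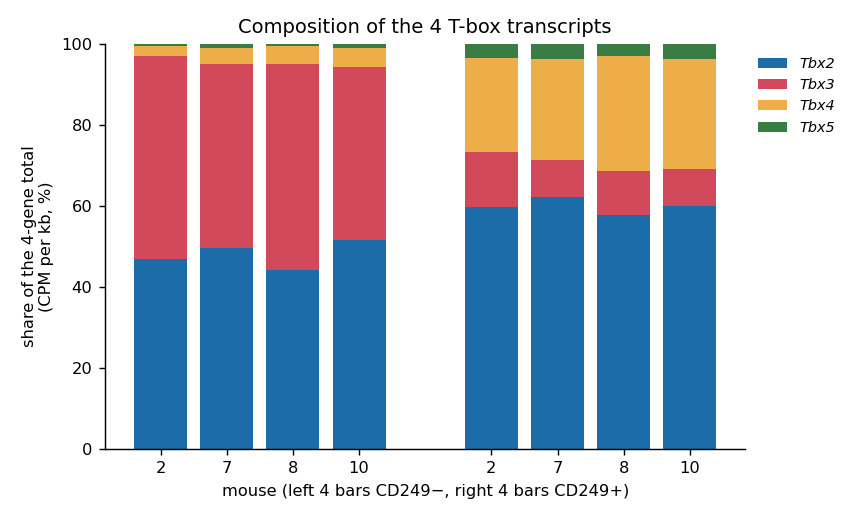
Share of each gene, in percent, in the summed CPM per kb of the 4 T-box genes, 1 bar per library, with CD249− libraries on the left and CD249+ libraries on the right. Tbx3 fills 42.9% to 50.8% of the CD249− bars and 9.14% to 13.5% of the CD249+ bars, while Tbx4 fills 2.43% to 4.72% and 23.4% to 28.6%.

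Whether the genes changed by different amounts was tested on the log2 ratio of 2 genes within each library, over all 6 pairs, by two-sided exact permutation of 4 against 4 libraries, whose smallest possible p is 0.0286. Both neighbouring pairs changed apart. Relative to Tbx4, Tbx2 fell by 2.45 on the log2 scale (SE 0.22), and relative to Tbx5, Tbx3 fell by 4.43 (SE 0.30). The repressors changed apart from each other by 2.49 (SE 0.18), with Tbx2 the higher in CD249+ cells. Tbx2 fell by 1.94 against Tbx5 (SE 0.16), and Tbx3 fell by 4.94 against Tbx4 (SE 0.31). Each of these 5 pairs reached p = 0.0286 (adjusted p = 0.0343, exact permutation test). The log2 ratio of Tbx4 to Tbx5 was 0.51 higher in CD249+ cells (SE 0.21), which did not pass the test (p = 0.0857, adjusted p = 0.0857, exact permutation test) and does not show that they changed equally. This test does not use the pairing by mouse. Within a mouse Tbx4 rose more than Tbx5 in 4 of 4 mice, by 0.66, 0.48, 0.47 and 0.43 on the log2 scale in mice 2, 7, 8 and 10 (mean 0.51, SE 0.05), but an exact sign-flip test of 4 pairs cannot go below the p = 0.125 that it gave here and for each of the other 5 pairs. Without the CD249− library of mouse 8 that difference was 0.66 (adjusted p = 0.0286, exact permutation test).

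The members were also set against fibroblast collagen, since the fractions differed in it. The summed level of 8 core collagen genes, among them Col1a1 and Col3a1 of the main fibrillar collagens, was 7428 ± 2805 CPM in CD249− and 21806 ± 5168 CPM in CD249+ cells (SD, n = 4). All 8 genes were called higher, beside 16.9% of all genes tested. Per collagen count, Tbx4 was still higher in CD249+ cells, by 2.42 on the log2 scale (SE 0.26), and Tbx5 by 1.91 (SE 0.37). Tbx3 was lower, with a log2 difference of -2.52 (SE 0.56). These 3 differences had p = 0.0286 (adjusted p = 0.0381, two-sided exact permutation test over the 4 members). Tbx2 differed per collagen count by -0.03 (SE 0.44, p = 0.943, exact permutation test), an interval wide enough to hold a change in either direction. Without the CD249− library of mouse 2 the differences were 2.57, 2.16 and -2.13 for Tbx4, Tbx5 and Tbx3, with adjusted p = 0.0571, 0.0571 and 0.0762 by the same exact test. Its smallest possible p with 3 against 4 libraries is 0.0286 before adjustment over the 4 members.

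**Figure D3:**
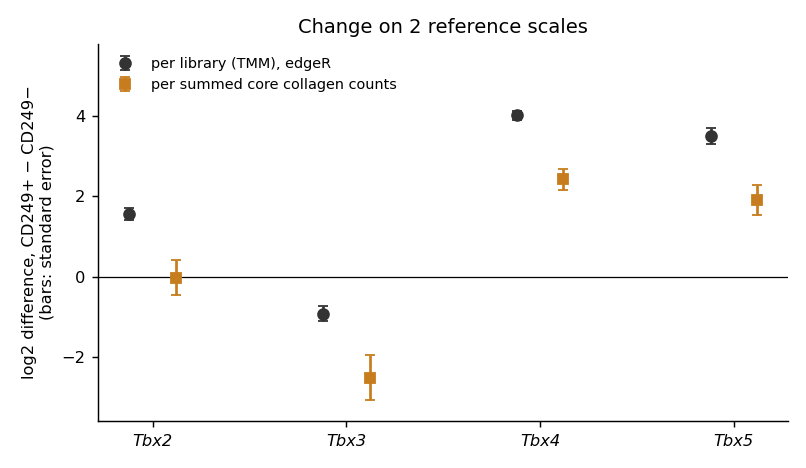
Log2 difference of CD249+ from CD249− libraries for each T-box gene, per TMM-scaled library (black circles, edgeR) and per summed counts of 8 core collagen genes (orange squares), with standard errors over 4 and 4 libraries. On the collagen scale Tbx2 lies at -0.03, Tbx4 and Tbx5 stay above 0 and Tbx3 lies lower, at -2.52.

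Markers of other cells moved with the members, and their part in the members' changes was not tested. Over all genes tested, 16.9% were called higher and 13.9% lower. Of 13 tested pericyte markers 12 were higher in CD249+ cells, with a summed level of 261 to 421 CPM in CD249− and 1197 to 1606 CPM in CD249+ libraries and a median log2 fold change of 2.63. Of 10 smooth muscle markers 9 were higher (338 to 974 and 1148 to 2110 CPM, median 1.72), as were 7 of 8 fibroblast genes other than collagens (2770 to 5795 and 6117 to 12061 CPM, median 1.30). These moved in the direction of Tbx2, Tbx4 and Tbx5. In the direction of Tbx3, 17 of 18 endothelial markers were lower, with sums of 15988 to 20753 CPM in CD249− and 4874 to 9246 CPM in CD249+ libraries and a median of -1.47, although the sort removed CD31+ cells. Of 9 mesothelial markers 5 were lower and 1 was higher (124 to 274 and 115 to 139 CPM, median -1.60). No marker of these lists was at 0 in all 8 libraries.

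The summed levels of epithelial, leukocyte, lymphocyte and cardiac muscle markers overlapped between the fractions. Calls in these lists stand beside the same 16.9% of all genes higher and 13.9% lower. Epithelial markers summed to 198 to 878 CPM in CD249− and 510 to 10319 CPM in CD249+ libraries, and the 3 of 12 that were called higher were the surfactant genes Sftpa1, Sftpb and Sftpc. These calls went to 0 when any 1 of 4 libraries was left out, CD249+ of mouse 10 and CD249− of mice 2, 7 and 8, and with mouse as a block 5 markers were higher. The log2 fold change of Sftpc was 3.59, and 1.48 without the CD249+ library of mouse 10 (adjusted p = 0.112). Without the CD249+ library of mouse 10, where Sftpc was highest, the log2 fold changes of Tbx2, Tbx3, Tbx4 and Tbx5 were 1.58, -0.84, 4.01 and 3.49, and edgeR called all 4. In mice 7 and 8 alone, which had more haemoglobin RNA, these values were 1.74, -0.90, 4.03 and 3.56, and in mice 2 and 10 alone they were 1.42, -0.92, 4.03 and 3.50, the call of Tbx3 being lost in the latter. Leukocyte markers summed to 1402 to 2606 and 1153 to 3403 CPM, with a median log2 fold change of -0.80 over 14 tested. None of these was called by edgeR in the comparison of all 8 libraries on group alone with TMM, although 5 were lower at an unadjusted p under 0.05. The number called lower was 7 with mouse as a block, 3 by DESeq2, 8 without the CD249− library of mouse 2 and 6 in mice 7 and 8 alone. Markers of T and natural killer lymphocytes, which express the T-box genes Tbx21 and Eomes, summed to 46.7 to 241 and 45.8 to 103 CPM. Of these 13, only Cd4 was called lower (adjusted p = 0.0402), and the number went to 7 with mouse as a block or without the CD249− library of mouse 2, to 5 by DESeq2 or without the CD249+ library of mouse 8, and to 0 by limma-voom or without any 1 of the other 6 libraries. Of 10 tested markers of the cardiac muscle around pulmonary veins, a tissue in which Tbx5 is active, 1 was called, Actc1 (adjusted p = 0.0404), and the list summed to 31.2 to 67.2 and 56.4 to 180 CPM. Actc1 was no longer called (adjusted p from 0.0873 to 0.112) when any 1 of 5 libraries was left out, the CD249− libraries of mice 2, 7 and 8 and the CD249+ libraries of mice 7 and 10.

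Across the rest of the family, no further T-box gene was called by edgeR, DESeq2 or limma-voom. The table held 17 T-box genes, of which 11 were tested, and the 4 called were the 4 members. The lowest unadjusted p among the 7 others was 0.053 (edgeR), so 0 of these had one under 0.05. Apart from the members, only Mga, a Max partner with a T-box that is expressed in many tissues, averaged above 10 CPM. Mga was at 69.6, 58.1, 42.1 and 52.9 CPM in CD249− and at 63.9, 38.5, 54.9 and 60.8 CPM in CD249+ libraries (mice 2, 7, 8 and 10 in that order), with overlapping fractions and a log2 fold change of -0.03 (SE 0.19, edgeR adjusted p = 0.923). The lymphocyte factors Tbx21 and Eomes averaged 8.61 and 2.63 CPM in CD249− and 3.73 and 0.979 CPM in CD249+ cells (log2 fold changes -1.21 and -1.42, adjusted p = 0.126 and 0.180). Tbx1, Tbx6, Tbx18 and Tbx20, which are known from the embryonic pharynx, somites, epicardium and heart, averaged 0.434 to 3.26 CPM in either fraction, with adjusted p from 0.403 to 0.846. Tbx10, Tbx15, Tbx19 and Tbr1 did not pass the filter on low counts, nor did Tbx22 and T, which had no count in any library.

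**Figure D4:**
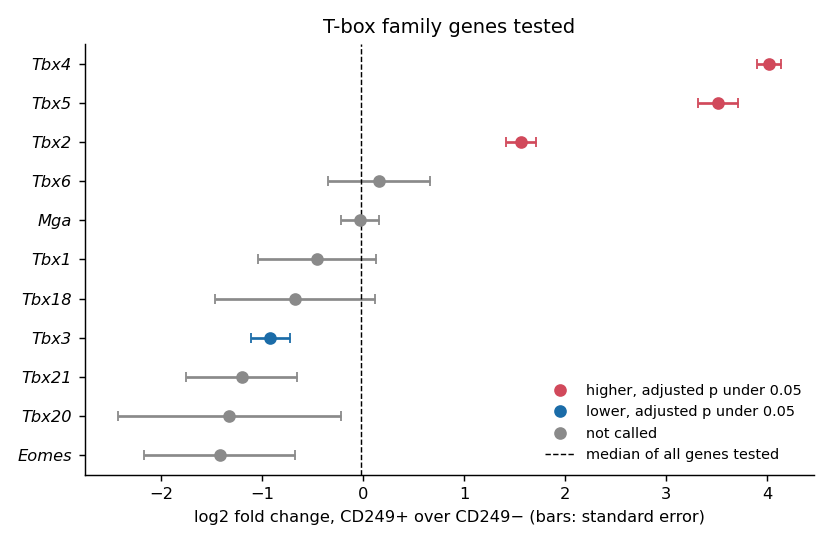
Log2 fold change (CD249+ over CD249−) with standard error for the 11 tested T-box genes, coloured by call, with a dashed line at the median of all genes tested. Tbx4, Tbx5 and Tbx2 lie to the right at 4.02, 3.51 and 1.56, Tbx3 is called lower, and the 7 others are grey.

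Genes known to be activated downstream of Tbx4 or Tbx5 were more often higher than lower. Of 8 tested, 6 were called higher and 2 were not called, with a median log2 fold change of 1.41, against -0.02 over all genes and 16.9% of all genes called higher. The 6 became as few as 4 in an alternative setting. Fgf10, the ligand that the mesenchyme sends to airway epithelium, was at 3.65, 3.08, 3.50 and 7.26 CPM in CD249− and at 71.2, 71.0, 72.0 and 78.2 CPM in CD249+ libraries (mice 2, 7, 8 and 10 in that order). Its CD249+ levels were nearly equal in all mice, and the log2 fold change was 4.05 (SE 0.26, edgeR adjusted p = 6.86e-06). The Wnt ligand Wnt2 was at 2.72, 5.18, 7.68 and 6.0 CPM and at 82.1, 65.1, 42.8 and 89.7 CPM, with a log2 fold change of 3.70 (SE 0.33, adjusted p = 4.25e-05). Bmp4, a growth factor of the lung mesenchyme, rose from 38.6 ± 8.75 to 123 ± 24.6 CPM (log2 fold change 1.67), and Gja5, which encodes the gap junction protein connexin 40, from 22.1 ± 4.61 to 74.8 ± 30.7 CPM (log2 fold change 1.76, SD, n = 4). The Wnt ligand Wnt2b (log2 fold change -0.93, adjusted p = 0.0947) and the FGF antagonist Spry2 (-0.05, adjusted p = 0.923) were not called.

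Genes known to be repressed by Tbx2 or Tbx3 mostly did not pass the test. Of 7 tested, 1 was called higher and 6 were not called, with a median log2 fold change of -0.18, beside 16.9% of all genes higher. The call was Gja1, which encodes the gap junction protein connexin 43. Gja1 was at 14.7, 24.6, 25.8 and 22.2 CPM in CD249− and at 50.9, 111, 116 and 64.0 CPM in CD249+ libraries (mice 2, 7, 8 and 10 in that order), so it was higher in the fraction with more Tbx2 and less Tbx3 (log2 fold change 1.97, SE 0.29, edgeR adjusted p = 0.000687). The cell-cycle inhibitors Cdkn1a (-0.18, adjusted p = 0.643) and Cdkn1b (-0.26, adjusted p = 0.234) were not called, nor were the Wnt antagonists Frzb (-1.33, adjusted p = 0.374) and Shisa3 (-0.47, adjusted p = 0.385). The epithelial cadherin gene Cdh1 (1.85, adjusted p = 0.0994) was not called either, but was called higher with mouse as a block (1.29, adjusted p = 0.0369), a fit in which 3 of the 7 genes were called higher, and without the CD249+ library of mouse 2 (2.18, adjusted p = 0.0457). In CD249+ cells Cdh1 was at 65.8 CPM in mouse 10 and at 5.40 to 14.7 CPM in mice 2, 7 and 8. The CD249− libraries held it at 3.75 to 11.9 CPM, so its levels in the fractions overlapped. Its highest level was thus in the CD249+ library of mouse 10, where Sftpc was also highest. Cdh1 also belongs to the epithelial markers.

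Genes of proteins that bind T-box factors were called in both directions. Of 15 partner genes tested, 4 were higher, 3 were lower and 8 were not called (median log2 fold change 0.11), beside 16.9% of all genes higher and 13.9% lower. Gata5, a zinc finger factor that acts with Tbx5 in the heart, was at 3.29, 7.21, 9.55 and 6.0 CPM in CD249− and at 99.2, 99.3, 95.6 and 158 CPM in CD249+ libraries (mice 2, 7, 8 and 10 in that order). Its log2 fold change was 4.12 (SE 0.32, edgeR adjusted p = 1.69e-05), close in size to that of Tbx4, a difference that was not tested. Casz1, a zinc finger partner of Tbx5, fell by 1.5 on the log2 scale, with means of 102 ± 9.54 and 36.0 ± 9.23 CPM (SD, n = 4), and the calcium-responsive factor gene Mef2c changed by -0.46, a call that was lost without mouse 7 or mouse 10 (adjusted p = 0.0562 and 0.0639). Egr1, an immediate early gene that tissue dissociation can raise and whose product binds Tbx2, changed by 1.44.

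Genes of the hedgehog, BMP and retinoic acid pathways, which act upstream of T-box genes in the embryo, were called in both directions. Of 16 genes in this list 6 were higher, 3 were lower and 7 were not called, with a median log2 fold change of -0.06, beside 16.9% of all genes higher and 13.9% lower, and 5 were lower with mouse as a block. The hedgehog effector gene Gli2 rose by 3.40 on the log2 scale, with means of 2.37 ± 0.695 and 25.0 ± 1.96 CPM (SD, n = 4), and the hedgehog transducer gene Smo rose by 1.06 on the log2 scale. The BMP receptor gene Bmpr1a rose by 1.96, while another BMP receptor gene, Bmpr2, was called lower (log2 fold change -1.32). Id1, a target gene of BMP signalling, fell by 1.25.

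Other transcription factors of lung mesenchyme gave a reference for the members. Of 15 tested, 8 were higher, 2 were lower and 5 were not called, with a median log2 fold change of 1.16, beside 16.9% of all genes higher and 13.9% lower. Foxf2 (4.34) changed by about as much as Tbx4, while Tcf21 (2.87), Nr2f2 (2.14) and Snai2 (1.83) lay between Tbx2 and Tbx5. The genes called lower were Foxf1, a forkhead factor needed for lung vessels, which averaged 1263 CPM in CD249− and 604 CPM in CD249+ cells (log2 fold change -1.06), and Zeb1 (-0.32, adjusted p = 0.0449). Over the alternatives 0 to 2 genes of the list were lower. The number was 2 with mouse as a block, by DESeq2 and by limma-voom. It was 1 without the low-count filter, and without any 1 library other than the CD249+ library of mouse 7. In mice 2 and 10 alone it was 0. The differences of these genes from the members were not tested.

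Genes beside the members were examined within 500 kb of each gene. Around Tbx2, 6 of 17 annotated neighbours were tested and 2 were called higher, the member Tbx4 and Bcas3, beside 16.9% of all genes tested. Bcas3, which encodes a cytoskeletal regulator and ends 6.49 kb before Tbx2 on the same strand, was at 47.6, 48.7, 56.9 and 60.0 CPM in CD249− and at 75.8, 86.8, 91.7 and 119 CPM in CD249+ libraries (mice 2, 7, 8 and 10 in that order). Its log2 fold change was 0.81 (SE 0.15, edgeR adjusted p = 0.00254), smaller than that of Tbx2, and it was not called in mice 2 and 10 alone (adjusted p = 0.135). The nearest tested gene downstream of Tbx4, Brip1, was not called (0.82, adjusted p = 0.158). Of the 17 annotated neighbours of Tbx2, 10 had no entry in the table of genes. Among these was 2610027K06Rik, the nearest annotated gene to Tbx2.

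The span between Tbx3 and Tbx5 held noncoding genes that moved in the direction of Tbx5. Around Tbx3, 4 of 16 annotated neighbours were tested and 3 were called higher, among them the member Tbx5, beside 16.9% of all genes tested. Of the 16 neighbours, 5 had no entry in the table of genes. Gm43050, a long intergenic noncoding RNA on the minus strand whose start lies 0.748 kb upstream of Tbx5, was at 0.697, 1.58, 1.67 and 2.22 CPM in the CD249− libraries (mice 2, 7, 8 and 10 in that order). In the CD249+ libraries Gm43050 was at 10.5, 12.7, 9.70 and 10.5 CPM. The fractions did not overlap, and the log2 fold change was 2.81 (SE 0.35, edgeR adjusted p = 0.000292), with no call in mice 2 and 10 alone (2.84, adjusted p = 0.0784). 1700021F13Rik, 24.8 kb upstream of Tbx5, averaged 0.112 ± 0.0747 CPM in CD249− and 1.62 ± 0.618 CPM in CD249+ cells (SD, n = 4), and edgeR called it higher, by 3.80 on the log2 scale (adjusted p = 0.00311). It was called neither in mice 2 and 10 alone (adjusted p = 0.115) nor in mice 7 and 8 alone (adjusted p = 0.0889). Tbx3os2, 0.371 kb downstream of Tbx3, had too few counts to be tested. Rbm19, the nearest tested gene downstream of Tbx5, was not called (0.44, adjusted p = 0.122).

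**Figure D5:**
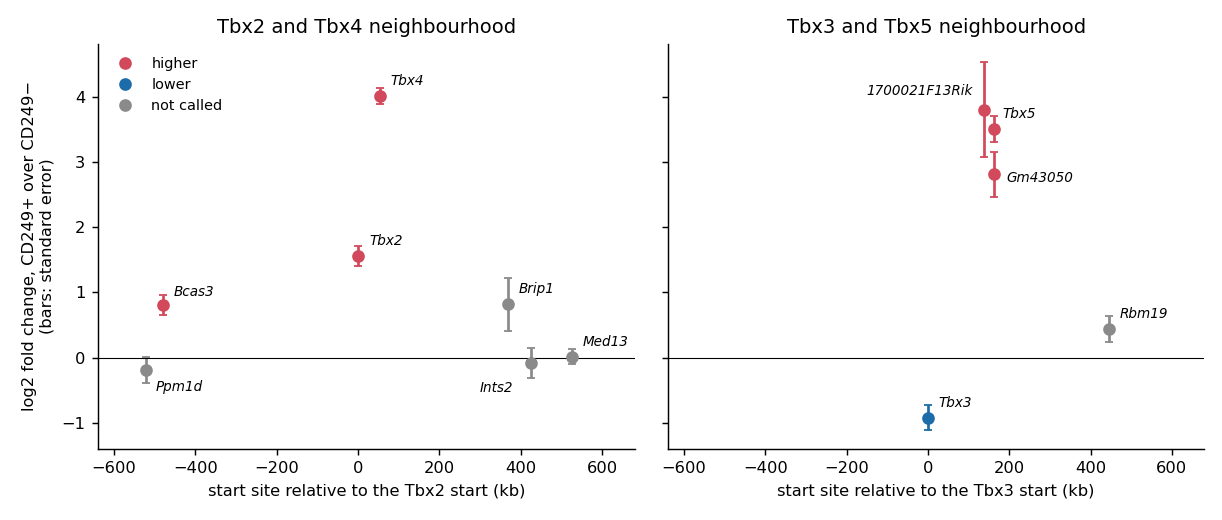
Log2 fold change with standard error of each tested gene within 500 kb of a member, placed by the distance of its start from that of Tbx2 (left) or Tbx3 (right) in kb. Gm43050, 1700021F13Rik and Tbx5 cluster at 2.81 to 3.80 while Tbx3 lies at -0.92, and Bcas3 lies between 0 and Tbx2.

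The genes whose profiles over the 8 libraries were nearest to each member were found by the root mean square difference in centred log2 CPM among 10086 genes. The value for Tbx4 was smallest for Mamdc2 (0.158), Spon1 (0.244), which encodes a spondin of the matrix, and the glutamate transporter gene Slc1a3 (0.273), against a median of 2.05 over all genes compared. Nearest to Tbx5 were Palld (0.155), which encodes the actin-bundling protein palladin, Slc1a3 (0.194) and Ism1 (0.236), against a median of 1.81. Slc1a3 was thus near both activators. Nearest to Tbx2 were Farp1 (0.105), Cys1 (0.134) and Ptar1 (0.140), against a median of 0.860. Nearest to Tbx3 were B2m (0.0759) and H2-K1 (0.0916), both of class I antigen presentation, and Wars (0.0985), the tryptophan transfer RNA ligase gene, against a median of 0.552. H2-K1 has close paralogs, so its estimated counts are uncertain. The measure reads the difference between the fractions together with the spread over mice, and all genes share the 8 libraries.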

How the data were processed

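The authors deposited 1 table of estimated counts per gene (expected counts, 12.0% of them not whole). Per the submitters' processing notes, the tools were RSEM 1.2.28, STAR 2.6.1, DESeq2 1.26.0, bcl2fastq 2.20 and R 3.6.3, whose roles are not stated. Those notes name GRCh38, a human build, with the mouse build not given in the sources used here. Per the labels' protocols, 10 ng of RNA was reverse transcribed from oligo(dT), amplified and read as single reads of 75 bp, with no strand. The amplified reads carry no molecular identifier, so counting errors treat copies as molecules, and the 92 spike-in entries, all 0, were left out.

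Estimated counts were rounded, filtered by filterByExpr, which left 14524 of 18552 genes, scaled by TMM and compared between fractions by a two-sided edgeR 4.0.16 quasi-likelihood F test (R 4.3.3) fitted on group alone. Standard errors of log2 fold changes were derived from the estimate and the F of that fit. Those of ratios between members and of differences per collagen count come from the spread of the log2 ratios of the libraries. Alternatives were mouse as a block, DESeq2 1.42.0, limma-voom (limma 3.58.1), other scalings and filters, and libraries left out. Ratios used a prior count of 0.5. The scripts were tested on simulated data.

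Each lung gave both fractions, and the libraries' deviations from group means correlated at 0.0951 to 0.238 within a mouse, against -0.181 to 0.0404 between mice (across genes), so mouse numbers were taken to pair the libraries. Columns were matched to samples by the names Ctrl (CD249−) and LIF (CD249+), which the labels do not explain. Of the identifiers 99.0% were found in GENCODE M21, 68.0% with the same version.

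The members, the 16 gene lists and the alternatives were chosen with earlier results of these data known. Named genes are the members, the T-box family, up to 4 genes per list with the smallest p, neighbours that overlap a member or are the nearest tested, and the 3 nearest profiles per member with at least 10 CPM in the higher fraction. Other genes named were chosen after their values were seen. Some items that these rules select are not reported here.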

Additional observations from a re-analysis of the deposited data

Results flagged for a closer look

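Among 38 groups of 4 values from T-box genes, 1 held a library far from the other 3 by Dixon's test (critical value 0.829), and chance alone marks about 1 group in 20. Eomes, a lymphocyte T-box factor, was at 0.3985 CPM in the CD249− library of mouse 2, against 3.64, 3.80 and 2.70 CPM in mice 7, 8 and 10. It rested on 12 counts there, against 90 to 104 in the others. No level, ratio or change of Tbx2, Tbx3, Tbx4 or Tbx5 was marked in this way.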

How the results depend on the processing

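No change that was called turned its direction. Tbx2 per core collagen count, which was not called, was -0.25 to 0.33 with libraries left out and 0.43 against fibroblast genes other than collagens. With library size alone, calls went from 2455 higher and 2013 lower to 2106 and 2689. Over 22 alternatives the log2 fold change was 1.42 to 1.74 for Tbx2, 3.92 to 4.07 for Tbx4 and 3.39 to 3.63 for Tbx5, called in all 22. That of Tbx3 was -1.07 to -0.74, called in 21 and lost in mice 2 and 10 alone, fitted without the mouse block (-0.92, adjusted p = 0.205). Genes called numbered 668 in mice 2 and 10 alone, and 2978 to 4458 with libraries left out. With mouse as a replicate block 5298 genes were called (2809 higher and 2489 lower), and the members were at 1.57, -0.92, 4.02 and 3.52 (Tbx2 to Tbx5), with no call of theirs changed. With libraries left out, the difference in change of Tbx4 against Tbx5 was 0.38 to 0.66. Pairing by mouse, added after seeing the data, kept the 6 differences between members and gave SEs of 0.0413 to 0.155. Against core collagen genes, Tbx3 was at -2.86 to -2.13, Tbx4 at 2.26 to 2.57 and Tbx5 at 1.70 to 2.16. The calls were lost without the CD249− library of mouse 2. Tbx4 and Tbx5 differed more there (2.57 and 2.16) than with all 8 libraries (2.42 and 1.91). With 3 against 4 libraries the smallest exact p is 0.0286 before adjustment, and the adjusted p of a member depends on those of the other members. Leaving out both libraries of a mouse leaves 3 against 3, where the smallest exact p is 0.1, so those ratios were compared by value only. Of the values of single genes and lists, 83 lost a call, 45 gained one, 101 counts moved and 2241 held. Tbx5 in CD249− cells rests on the fewest counts, 92 to 191.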
